A study of Mus musculus with 12 samples.

Results

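The untreated state of mLTC-1, an immortalized cell line made from a mouse Leydig cell tumour, is described here from its 6 control libraries, out of 12 libraries in the series. The members are the libraries labelled as control replicates 1 to 6. By the labels' protocols these cells received the DMSO vehicle for 24 h before RNA was taken, so that untreated means vehicle-treated. The other 6 libraries came from cells given 100 µM MSNBA, which the labels give as a Glut5 inhibitor, and they enter no value below. Cells of both groups grew in RPMI medium with fetal bovine serum. PolyA RNA was sequenced from tagmented libraries and deposited as whole-number counts per gene symbol, which the table's name marks as counts of unique molecular identifiers (UMIs) on RefSeq genes. The labels do not say whether the replicates were separate cultures, so a p-value speaks only of the differences among these libraries, which may be technical. All of them come from a single line of tumour origin, which limits what they show of Leydig cells in a testis.

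Leydig cells lie between the seminiferous tubules of the testis and make androgens. Luteinizing hormone acts through its receptor and cyclic AMP, cholesterol is carried into mitochondria by Star, Cyp11a1 cuts its side chain to give pregnenolone, and Hsd3b and Cyp17a1 enzymes carry it on towards androstenedione. Adult Leydig cells finish testosterone with Hsd17b3, the transcription factor Nr5a1 drives many of these genes, and the cells also secrete the peptide hormone Insl3.

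The 6 libraries were shallow and unequal. Levels are given in CPM, the counts of a gene over its library's total, scaled to 1e6. Totals ran from 59113 counts in control 5 to 234225 in control 1, with 77030, 83983, 79770 and 145516 in controls 2, 3, 4 and 6. The deepest library held 3.96 times the counts of the shallowest, so a single count stood for 4.27 CPM in control 1 and for 16.9 CPM in control 5. Pooled over all 679637 counts, a floor of 3 counts was 4.41 CPM. Intervals and floors below cover counting error only. Controls 2 and 4 stood apart from the other 4 in the summed level of stress response genes, given further on. In the deposited table they also stand beside MSNBA 3 and 5. The column order reads as 3 sets of 4: controls 1, 3, 5 and 6, then controls 2 and 4 with MSNBA 5 and 3, then the other 4 MSNBA libraries. Groups were taken from the labels alone, no source used here could check them, and the main results that rest on controls 2 and 4 are given with and without them.

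Across pairs of control libraries, the chi-square of the counts over its degrees of freedom ran from 1.28 for controls 3 and 5 to 2.40 for controls 1 and 4. A value of 1 is what counting error alone would give, so every pair differed by more than sampling noise and none looked like 1 library deposited again. The pairs that held control 2 ran from 2.09 to 2.40. Pearson's r of log2(CPM + 10) ran from 0.870 for controls 2 and 5 to 0.962 for controls 1 and 6, across 373 genes with 300 counts or more. Genes are not independent replicates, and the r carries no test.

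A few sequences are shown first, because several of the highest and most variable genes of the control libraries carry them. Many rodent transcripts hold copies of short interspersed elements, which are repeats of retrotransposon origin, and reads from such copies, like reads from a processed pseudogene, are hard to assign to a single gene. The longest run of bases that transcripts of Timm22 and Kif3a share was 81 bases, and the longest run that transcripts of Irak1 and Xaf1 share was 54 bases. The first 30 bases of the former and bases 13 to 42 of the latter, from the GENCODE M21 transcripts, read as follows, with capitals for the 20 bases that were searched in all transcripts on both strands.
Timm22 and Kif3a: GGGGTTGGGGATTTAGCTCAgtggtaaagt
Irak1 and Xaf1: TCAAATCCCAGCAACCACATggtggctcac

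The other pair is Gapdh, the glycolytic enzyme gene that led all genes, and Gm12070, a processed copy of it that ranked 13. Gm12070 lies on chromosome 11 from 26785108 to 26787860 and Gapdh on chromosome 6 from 125161852 to 125166467 (RefSeq on GRCm38, the mm10 assembly). The 1002 bases of the Gm12070 transcript aligned to Gapdh over their whole length with 1 mismatch and no gap. The windows around that mismatch are shown in transcript order, with the differing base in capitals. The substitution is G361A, with Gapdh's base first, the position counted from 1 at the 5′ end of the Gm12070 transcript, and the base of Gm12070 last.
Gapdh: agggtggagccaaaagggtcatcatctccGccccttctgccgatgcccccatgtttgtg
Gm12070: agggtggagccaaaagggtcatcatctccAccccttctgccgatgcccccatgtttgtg

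Control cells expressed a broad transcriptome, with genes of glycolysis, translation, iron storage and detoxification among its highest single genes. Of 26214 gene symbols, 16622 (63.4%) had at least 1 count and 5633 had a count in every library. Another 9592 were at 0, and 3130 had exactly 1 count. The 10 highest genes held 6.97% of all counts, the 100 highest held 25.6%, and the 1000 highest held 62.1%. Protein-coding genes took 97.5% of the counts, transcribed pseudogenes 1.24% and long noncoding RNA genes 1.08%. The table held 0 symbols of mitochondrially encoded genes.

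**Figure D1:**
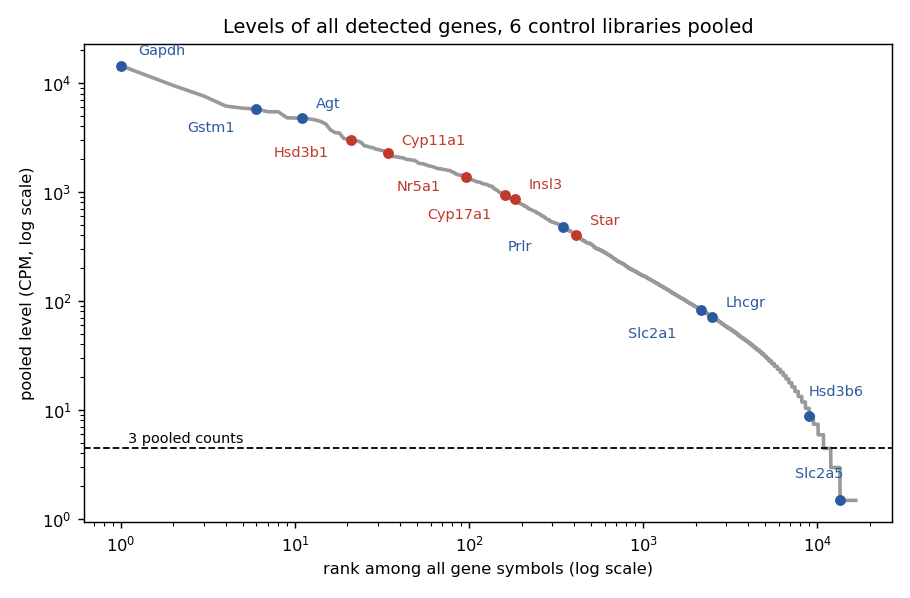
Pooled level in CPM of every detected gene (vertical axis, log scale) against its rank (horizontal axis, log scale), with red points for the 6 Leydig markers and blue points for other genes named in the text. The dashed line is 3 pooled counts. Hsd3b1 ranked 21 and Cyp11a1 34, while the receptor gene Lhcgr ranked 2488.

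Gapdh measured 14400.3 CPM pooled, with a 95% exact Poisson interval from 14116.4 to 14688.5. Its lowest library was control 2 at 11982 CPM, its median was 14320.0 and its highest was control 3 at 16682. Gm12070 measured 4585 CPM, and its counts were 31.8% of those of Gapdh, from 29.1% in control 3 to 33.1% in control 6. The copy thus followed Gapdh in a nearly fixed ratio in all 6 libraries. With 96.8% of its 31-base words also in Gapdh, reads of the pair can hardly be told apart, and both levels are uncertain to that extent.

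The other leading genes were of 4 kinds. Ribosomal proteins held 8 of the 20 highest places, with Rpl41 at 9480 CPM and Rpl28 at 6139 CPM. Ribosomal protein genes have many near-identical pseudogenes, so that the assignment of shared reads bears on their counts. Ftl1, the light chain of the iron store ferritin, measured 7572 CPM, and Gstm1, a glutathione transferase, measured 5752 CPM. The metallothionein gene Mt1, whose protein binds zinc and other metals, measured 4769 CPM. Pkm and Aldoa, both glycolytic enzymes, measured 5440 and 4688 CPM. Between them stood Mif, a cytokine gene, at 4786 CPM, and Agt, at rank 11.

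Agt encodes angiotensinogen, the precursor of angiotensin, and is best known from liver. Its lowest library was control 4 at 4024 CPM, its median was 4597 CPM and its highest was control 1 at 5153 CPM. It was therefore high in all 6 libraries. Ren1, the gene of renin, the protease that cuts angiotensinogen, had 0 counts, with an exact interval up to 5.43 CPM. The spread of Agt was called by edgeR (adjusted p = 0.0213), though not without controls 2 and 4 (0.341). Among other secreted products, Igfbp6 and Igfbp2, which bind insulin-like growth factors, measured 955 and 386 CPM, and Pomc, the corticotropin precursor gene, had 0 counts. Per kilobase of transcript Agt ranked 56, at a median transcript length of 1891 bases, against 633 for Mt1 and 796 for Aldoa, its neighbours by rank.

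All 6 markers of the Leydig line were detected in all 6 libraries. Hsd3b1 had 2028 pooled counts, Cyp11a1 1541, Nr5a1 922, Cyp17a1 642, Insl3 580 and Star 271. Among all symbols they ranked 21, 34, 96, 160, 183 and 411 by CPM. Per kilobase they ranked 92, 50, 322, 331, 121 and 804, so the order among them changed with the lengths used. Cyp11a1 then led Hsd3b1, and Insl3, a short transcript, moved ahead of Nr5a1 and Cyp17a1. The lengths are medians over a symbol's protein-coding transcripts, 848 bases for Cyp11a1 and 1759 for Hsd3b1. The lead of Cyp11a1 thus rests on a median that short annotated transcripts can lower. Ranks per kilobase also assume tags along the whole transcript, which was not known. Over tested genes, Spearman's correlation of pooled CPM with transcript length was -0.239. Star stood last by either measure. The label of a Leydig line therefore held against its markers.

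Cyp11a1, the side-chain cleavage enzyme (chromosome 9, 57998024 to 58027031), ran from 2012 CPM in control 2 through a median of 2205 CPM to 2508 CPM in control 6. Its libraries overlapped within counting error over most of their range, and its SD over the 6 libraries was 1.15 times that expected from counting alone. Insl3 (chromosome 8, 71689252 to 71690577) ran from 735 CPM in control 6 through 862 to 931 CPM in control 1. Its SD was 0.930 times the counting value, so the 6 libraries differed no more than counts of this size do.

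Hsd3b1, which turns pregnenolone into progesterone (chromosome 3, 98842356 to 98859794), ran from 2036 CPM in control 3 through a median of 2958 CPM to 4167 CPM in control 2. Control 2 stood above the other 5, and controls 3 and 5 were the lowest. Its SD was 4.14 times the counting value. Star, the cholesterol carrier (chromosome 8, 25808474 to 25815982), ran from 286 CPM in control 3 through 359 CPM to 740.0 CPM in control 2, with 577 CPM in control 4. Its 2 highest libraries were controls 2 and 4, and its SD was 2.74 times the counting value. Nr5a1 (chromosome 2, 38692656 to 38714542) ran from 1143 CPM in control 3 to 1727 CPM in control 2, with 1617 CPM in control 4, so that controls 2 and 4 again were the 2 highest. Cyp17a1 (chromosome 19, 46667165 to 46673000) ran from 762 CPM in control 3 to 1233 CPM in control 2, with the other 4 between 863 and 948 CPM.

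**Figure D2:**
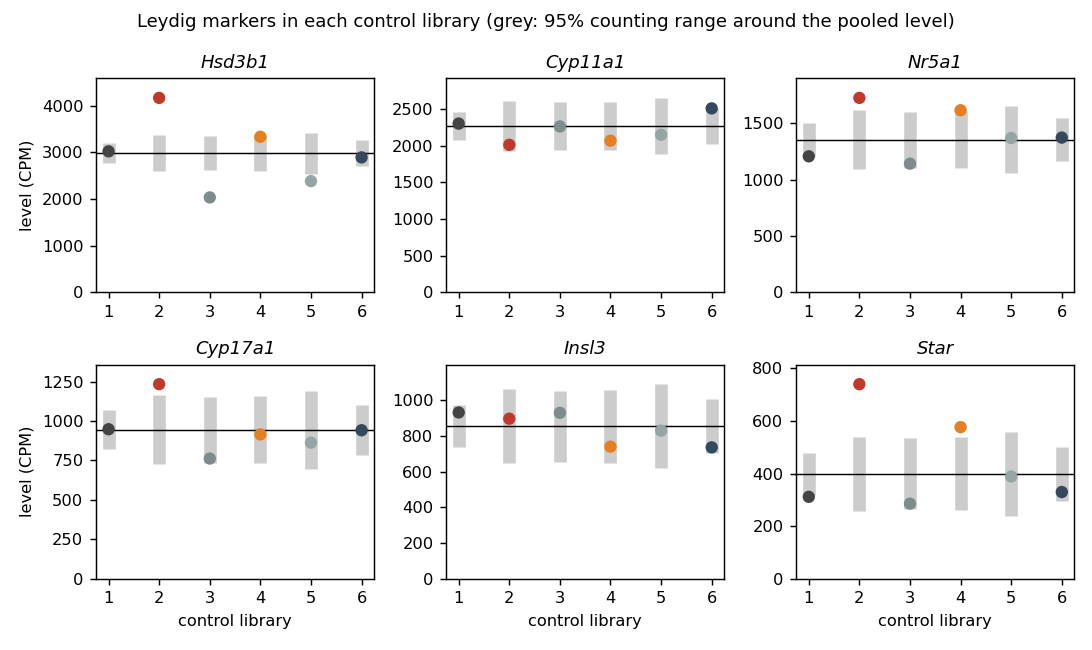
Level in CPM (vertical axes, from 0) of the 6 Leydig markers in control libraries 1 to 6 (horizontal axes), with controls 2 and 4 in red and orange. The line is the pooled level and each grey bar the 95% range that counting error alone gives at that library's depth. Insl3 lay inside the bars in all libraries, and Hsd3b1 and Star lay far above them in control 2.

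Whether the libraries differed by more than counting error was tested by edgeR's goodness-of-fit test on a Poisson fit with 1 mean per gene, over genes with 60 pooled counts or more, with Benjamini-Hochberg adjustment. Of 2024 genes tested, 203 were called at an adjusted p of 0.05, which is 10.0% (451 had an unadjusted p under 0.05). Of the 6 markers, 3 were called. Hsd3b1 had an adjusted p of 4.09e-12 by edgeR, Star 1.24e-04 and Nr5a1 0.0339. Cyp11a1 (0.414), Cyp17a1 (0.282) and Insl3 (0.541) were not called. The share called was higher for better-counted genes: 4.45% of genes under 200 counts, 17.0% of those from 200 to under 600 and 41.8% of those with 600 or more. Hsd3b1, Cyp11a1, Nr5a1 and Cyp17a1 have over 600 counts, and 2 of these 4 were called, which is near that background.

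Leaving out controls 2 and 4, a choice made after seeing the data, changed 2 of these 3 calls. Over the other 4 libraries edgeR called 100 of 1544 genes, or 6.48%. The adjusted p of Hsd3b1 was then 3.13e-04, that of Star 0.894 and that of Nr5a1 0.650. Without control 2 alone, Star had an adjusted p of 0.122 and Nr5a1 0.236. Nr5a1 was also not called with TMM factors in place of library totals (adjusted p = 0.134), while Cyp11a1 then was (adjusted p = 0.0129). The pooled level of Star was 399 CPM over 6 libraries and 321 CPM over the 4, and its rank moved from 411 to 510.

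The electron carriers and partners of these enzymes were expressed at moderate levels. Tspo, an outer mitochondrial membrane protein that binds cholesterol, measured 934 CPM, and Cyb5a, which aids the lyase step of Cyp17a1, 372 CPM. Fdx1 and Fdxr, which pass electrons to Cyp11a1, measured 281 and 231 CPM, and Por, which serves Cyp17a1, 243 CPM. Of 26 steroidogenic enzymes and carriers, 23 were detected, 15 were tested, and the 2 called were Star and Hsd3b1 (13.3%, against 10.0% of all tested genes). Their summed level ran from 9228 CPM in control 3 through a median of 10739 to 12073 CPM in control 2. With TMM factors control 1 was the highest for the sum, at 11604, ahead of control 2 at 11523.

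Hsd17b3, with which adult Leydig cells finish testosterone, had 0 counts in all 6 libraries. By the floor of 3 pooled counts that allows 4.41 CPM, and the exact 95% interval reaches 5.43 CPM. Other members of the 17-beta dehydrogenase family were present: Hsd17b10, a mitochondrial enzyme of amino acid and steroid oxidation, measured 1055 CPM, Hsd17b7 measured 149 CPM and Hsd17b12 115 CPM. Only RNA was measured, and whether these cells carried out the last step of testosterone synthesis was not tested. Srd5a1, a steroid 5-alpha reductase, measured 152 CPM, while Cyp19a1, the aromatase that makes estrogens, had 2 counts. Hsd11b1, which handles glucocorticoids in adult Leydig cells, had 0. Hsd3b6, the 3-beta dehydrogenase gene of adult mouse Leydig cells, had 6 counts against 2028 for Hsd3b1. The transcripts of these genes were 88.8% identical over 1303 aligned bases with a longest identical run of 72 bases, so a read inside such a run could belong to either.

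Among receptors and signalling genes, Lhcgr, the luteinizing hormone receptor (chromosome 17, 88716384 to 88792059), had only 48 counts, or 70.6 CPM with an interval from 52.1 to 93.6. It ran from 33.8 CPM in control 5 through 74.1 to 130 CPM in control 2, and it had too few counts to be tested. The prolactin receptor gene Prlr measured 478 CPM, from 288 CPM in control 4 through 468 to 583 CPM in control 3, and was not called (adjusted p = 0.0722 by edgeR). The stimulatory G protein gene Gnas measured 758 CPM and ran from 711 to 870 CPM over the libraries. Prkaca, the catalytic subunit of protein kinase A, measured 566 CPM. Of the 26 genes of gonadotropin receptor and cAMP signalling, 25 were detected and 5 were tested. The edgeR test called 0 of the 5, where it called 10.0% of all tested genes. An unadjusted p under 0.05 was seen for 2 (adjusted p from 0.0722 to 0.885). With TMM factors Prlr (adjusted p = 0.0104) and Prkaca were called. Mc2r, the corticotropin receptor, had 0 counts.

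Among transcription factors of Leydig cells, Nr5a1 held 922 of the list's 1695 counts. Gata4, a zinc finger factor of gonadal cells, measured 154 CPM and Gata6 45.6 CPM. Nr2f2, a factor of interstitial progenitors, measured 61.8 CPM. Nr4a1, an early gene that luteinizing hormone induces, had 4 counts. Lhx9, Nr0b1 and Wt1 had 0. Of 20 factors, 16 were detected, 7 were tested and Nr5a1 was the 1 that was called.

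The lists of adult and fetal Leydig cell markers did not fall on 1 side, and whether each member separates these stages was not tested. Of 8 genes listed as adult, Hsd17b3 and Hsd11b1 were at 0, Ptgds had 3 counts and Sult1e1 1. By contrast, Insl3 and Prlr were high and Vcam1 measured 124 CPM. Insl3 alone held 580 of the 999 counts of the adult list. Of 5 fetal markers, Mc2r was at 0, Thbs2 and Crhr1 had 1 count each, and Mrap, which escorts melanocortin receptors to the cell surface, held 254 of the 270 counts. Mrap ran from 221 CPM in control 2 through 375 to 439 CPM in control 4 and was not called (adjusted p = 0.294 by edgeR).

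Markers of other cell types were mostly near the floor. Macrophage markers summed to 30 counts over 14 genes, or 44.1 CPM, from 13.0 CPM in control 2 to 83.4 CPM in control 3, with Adgre1, C1qc, Cd14 and Cd74 at 0. Endothelial markers summed to 45 counts, of which Plvap held 31, with Kdr, Tie1 and Cldn5 at 0, and ran from 25.1 to 95.3 CPM. Fibroblast and peritubular markers summed to 57 counts, from 23.8 CPM in control 3 to 195 CPM in control 2, with 125 CPM in control 4, and in control 2 Col1a2 alone measured 104 CPM. Epithelial markers had 8 counts, granulosa markers 5 and red blood cell markers 5. In a bulk sample, fewer cells of a type and less RNA per cell cannot be told apart.

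In some lineage lists most counts came from a few genes that other cells also express. Of 14 Sertoli cell markers, Ctsl, a lysosomal protease, held 1798 and Clu, a secreted chaperone, held 966 of 2857 counts. Both were called by edgeR, Ctsl at an adjusted p of 2.97e-09 and Clu at 8.45e-07, and neither was without controls 2 and 4 (0.222 and 0.0851). The factor Sox9, which marks Sertoli cells, had 3 counts, and Amh and Fshr had 1 each. Of 7 adrenal markers, Mrap and the sulfotransferase gene Sult2a1 (135 counts) held nearly all, while Cyp11b1 and Cyp11b2, which make corticosterone and aldosterone, were at 0. Of 21 liver secretory markers, Apoe held 534 and Apoc1 387 of 1086 counts. Both are apolipoproteins of lipid transport. Apoc1 was called, with 1026 CPM in control 2 against 414 to 607 CPM elsewhere, and was not without controls 2 and 4 (adjusted p = 0.807 by edgeR). Alb, the albumin gene, had 76 counts, while Ttr, Fgb and Serpina1a were at 0. Of 15 germ cell markers, Ldhc, a lactate dehydrogenase of sperm, held 63 of 180 counts, and Ddx4 and Sycp1 were at 0.

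Fructose entry genes were at or near the floor. Slc2a5, the Glut5 gene (chromosome 4, 150119344 to 150144168), had a single count pooled, in control 5, or 1.47 CPM with an interval from 0.0373 to 8.20. All 14 hexose transporter genes summed to 113 counts, of which Slc2a1, the widespread glucose transporter, held 56 and Slc2a8 32. Slc2a2, Slc2a6 and Slc2a10 were at 0. Khk, the kinase that starts fructose use, measured 112 CPM and ran from 75.6 CPM in control 6 through 106 to 141 CPM in control 1, with no call (adjusted p = 0.776 by edgeR). Hk3, a hexokinase, was at 0, and Sord, which makes fructose from sorbitol, measured 104 CPM. Of 11 fructose and polyol genes, 9 were detected and 5 were tested. The edgeR test called 0 of the 5, where it called 10.0% of all tested genes. An unadjusted p under 0.05 was seen for 0, and the lowest adjusted p was 0.263, for Akr1b8.

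Glycolysis, by contrast, was highly expressed. All 19 genes of the list were tested, with a summed level of 34458 CPM. Of these, 7 were called, or 36.8%, against 10.0% of all tested genes. The list's median was 231 counts. The share called was 17.0% of all tested genes with 200 to under 600 counts and 41.8% of those with 600 or more. Control 2 was the lowest library for 10 of the 19 and for 21.2% of all tested genes, and the list's sum was 28768 CPM there against 32995 to 36329 CPM in the other 5. Ldha, lactate dehydrogenase A, showed the widest range of those called. It measured 519 CPM in control 2, 727 to 786 CPM in controls 3, 4 and 5, 1285 in control 6 and 1332 in control 1. Controls 1 and 6, the 2 deepest libraries, lay apart from the rest (adjusted p = 1.96e-11 by edgeR, and 3.09e-04 without controls 2 and 4). Pkm was not called (adjusted p = 0.350), and Eno1 measured 978 CPM. With controls 2 and 4 left out, 3 of 17 glycolytic genes were called: Ldha, Gapdh and Pgk1.

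Mitochondrial energy genes were also highly expressed, and oxidative phosphorylation summed higher than glycolysis, over 86 genes against 19. The 71 tested genes of oxidative phosphorylation summed with the untested ones to 38232 CPM, from 36279 to 40059 CPM. Of the 71, 8 were called, or 11.3%, against 10.0% of all tested genes. The list's median was 248 counts, and 17.0% of all tested genes with 200 to under 600 counts were called. Cox4i1, a cytochrome oxidase subunit, ran from 1670 CPM to 2064 CPM (adjusted p = 0.734). Ndufb8, a complex I subunit, was called, with 117 CPM in control 2, a median of 373 CPM and 541 CPM in control 5 (adjusted p = 0.00852, and 0.641 without controls 2 and 4). Of the tricarboxylic acid cycle, 13 genes were tested and Sdhb and Ogdh were called (15.4%). Sdhb, the iron-sulfur subunit of succinate dehydrogenase, ran from 976 CPM in control 6 to 1817 CPM in control 2, and was not called without controls 2 and 4 (adjusted p = 0.476). Of fatty acid oxidation, 15 genes were tested and Acaa2 alone was called.

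Steroid synthesis draws on cholesterol that cells make or take up. All 24 cholesterol synthesis genes were detected and 21 were tested. Their sum ran from 7862 CPM in control 6 through 8292 to 9064 CPM in control 4, and Fdps, which makes farnesyl diphosphate, was the 1 member called (1697 to 2608 CPM, adjusted p = 0.00958 by edgeR, and 0.157 without controls 2 and 4). With TMM factors it was not called, and the lowest library for the sum was control 5 in place of control 6. Of the 20 genes of cholesterol uptake and storage, 8 were tested and edgeR called 0, with 1 at an unadjusted p under 0.05. Of all tested genes, 10.0% were called. The sum of the 20 ran from 2607 CPM in control 4 through 3277 to 3608 CPM in control 1. Scarb1, the high-density lipoprotein receptor that supplies Leydig cells, had 23 counts. Of 11 tested genes of fatty acid synthesis, Me1, Scd2 and Thrsp were called, or 27.3%, against 17.0% of all genes with 200 to under 600 counts, and Thrsp, a lipogenic regulator, ran from 143 CPM in control 2 through 314 to 508 CPM in control 1. Scd2 was the 1 member still called without controls 2 and 4.

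Detoxification and iron storage were high throughout. The 29 genes of that list summed to 32232 CPM, and 6 of 22 tested were called: Ftl1, Gstm1, Mt1, Mt2, Sod1 and Gsta4. That is 27.3%, against 10.0% of all tested genes and 17.0% of those from 200 to under 600 counts. Gstm1 ran from 4149 CPM in control 4 through 5738 to 6783 CPM in control 6 (adjusted p = 3.05e-12 by edgeR). Sod1, the cytosolic superoxide dismutase, ran from 1376 CPM in control 2 to 2165 CPM in control 1. Fth1, the ferritin heavy chain, measured 2453 CPM and was not called. Mt1 and Mt2 were both lowest in control 4 and highest in control 2. Mt1 ran from 3986 to 5245 CPM, and Mt2 from 1454 to 2973 CPM, with its next highest library, control 3, at 2167 CPM. Without controls 2 and 4, Ftl1, Gstm1 and Sod1 were called and Mt1, Mt2 and Gsta4 were not.

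Lysosomal genes summed to 11063 CPM, and 4 of 18 tested were called, or 22.2%, near the 17.0% of all genes with 200 to under 600 counts. They went different ways in the same libraries. The protease gene Ctsl was lowest in control 2, at 1792 CPM against 1981 to 3161 CPM elsewhere. Ctsd, another lysosomal protease, was highest in control 2, at 1220 CPM against 536 to 953 CPM elsewhere. Sqstm1, the autophagy receptor p62, ran from 262 CPM in control 3 to 896 CPM in control 2 and remained called without controls 2 and 4 (adjusted p = 0.0208 by edgeR).

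Of the lists, the cytosolic ribosome took the most counts. The 83 cytosolic ribosomal protein genes summed to 121332 CPM and ran only from 117197 to 127028 CPM. Of 77 tested, 15 were called (19.5%), at a median of 767 counts, where 41.8% of all genes with 600 counts or more were called. Rpl28 had the smallest adjusted p of them, 1.72e-22 by edgeR: it measured 8698 CPM in control 2, 7001 in control 3 and 5106 to 6158 CPM in the others. Without controls 2 and 4, 8 of 76 were called, Rpl28 among them. Mitochondrial ribosomal proteins, the proteasome and heat shock proteins had 27, 22 and 12 tested genes. The edgeR test called 0 in each of these lists, with 3 in each at an unadjusted p under 0.05. The lowest adjusted p was 0.0664, for Psmb3. The lists had median counts of 93, 158.5 and 216. The share called was 4.45% of all tested genes under 200 counts and 17.0% of those from 200 to under 600. In lists this short, 0 calls are no sign of steadiness. With TMM factors Psmb3, Psmb4, Hspd1 and Hsp90aa1 were called.

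Growth genes were present at lower levels. The 26 cell cycle genes summed to 2541 CPM, from 1947 CPM in control 2 to 2879 CPM in control 6, with 0 of 7 tested called by edgeR and 0 at an unadjusted p under 0.05, and the proliferation marker Mki67 had 56 counts. The 28 DNA replication genes summed to 1986 CPM, from 1404 CPM in control 4 to 2391 CPM in control 1. Of these, Rrm2, a subunit of the reductase that makes deoxynucleotides, was called, with 538 CPM in control 1 and 62.7 CPM in control 4 (adjusted p = 5.84e-12 by edgeR). Controls 4 and 2 were its 2 lowest libraries, and it remained called without them (adjusted p = 0.0135). Immediate early genes summed to 385 CPM, with 0 of 20 at 60 counts, and Fos had 3 counts. Interferon response genes summed to 1507 CPM with 0 of 3 tested called by edgeR and 0 at an unadjusted p under 0.05. The 14 hypoxia response genes, tested for 7 members, also had 0 of each, and Bnip3, a mitophagy receptor, led them at 664 CPM. As 10.0% of all tested genes were called, 0 calls in such short lists say little.

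Large differences between libraries ran through the integrated stress response, the program that cells turn on through Atf4 when translation initiation is checked. The 32 genes of the list summed to 8581 CPM in control 2 and 7208 CPM in control 4, against 4275 to 4659 CPM in controls 1, 3, 5 and 6. Of 15 tested members, 9 were highest in control 2 and 6 in control 4, where 22.1% and 17.1% of all tested genes were. The edgeR test called 6 of the 15: Ddit3, Atf5, Nupr1, Trib3, Psph and Eif4ebp1. That is 40.0%, where 10.0% of all tested genes were called. The tested members had a median of 158 counts. The share called was 4.45% of all tested genes under 200 counts and 17.0% of those from 200 to under 600. With TMM, DESeq2 or upper-quartile factors the sum was likewise highest in control 2 and next in control 4. Without these 2 libraries, 1 of 11 tested members, Atf5, was called. This list was chosen with the high values of controls 2 and 4 known from an earlier look at the data, so its count is no independent evidence of them. Fibroblast and peritubular markers, 57 counts in all, were also highest in controls 2 and 4, at 195 and 125 CPM against 23.8 to 84.6 CPM elsewhere, and their part in the result was not tested.

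Ddit3, which encodes the stress factor CHOP (chromosome 10, 127290793 to 127296291), measured 2259 CPM in control 2 and 1229 CPM in control 4. In the other libraries it measured 649, 417, 508 and 653 CPM in controls 1, 3, 5 and 6. The 2 high libraries did not overlap the other 4, and the SD over all 6 was 7.23 times the counting value (adjusted p = 1.39e-35 by edgeR). Without controls 2 and 4 it was not called (adjusted p = 0.298). Nupr1, a small stress-induced chromatin protein, measured 765 CPM in control 4 and 610 in control 2, against 273 to 321 CPM elsewhere, and its adjusted p went from 3.75e-07 to 0.961. Atf5, an Atf4-related factor, measured 909 CPM in control 2, 802 in control 4 and 312 to 592 CPM elsewhere, and remained called without them (adjusted p = 0.0453). Trib3, a pseudokinase that Ddit3 induces, measured 260 CPM in control 2 and 201 in control 4, against 35.7 to 118 CPM elsewhere. Psph, which makes serine, measured 260 and 226 CPM there, against 61.8 to 118 CPM. Trib3 and Psph fell below 60 counts without those 2 libraries and could not be tested there.

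Atf4 itself was not called. It measured 313 CPM in control 4 and 234 CPM in control 2, within a range that began at 155 CPM in control 3. Asns, the asparagine synthetase gene, measured 176 CPM in control 4 and 169 in control 2, against 59.5 to 85.4 CPM elsewhere, and was not called either (adjusted p = 0.224 by edgeR). Of 11 tested genes of protein folding in the endoplasmic reticulum, Calr was the 1 called, or 9.09% where 10.0% of all tested genes were (1726 to 2570 CPM, adjusted p = 0.00958, and 0.515 without controls 2 and 4), and Hspa5, the chaperone BiP, ran from 679 to 974 CPM without a call (adjusted p = 0.543). Gdf15 and Fgf21, secreted proteins of the stress response, had 0 counts.

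**Figure D3:**
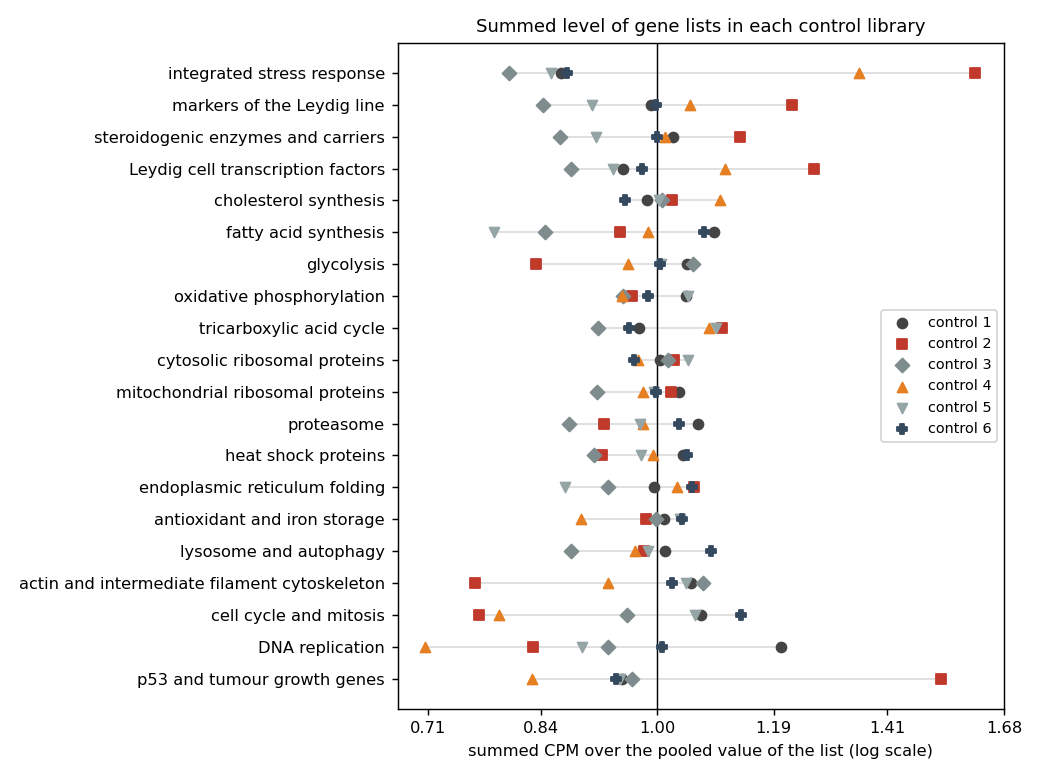
Summed CPM of 20 gene lists in each control library, divided by the list's pooled value (horizontal axis, log scale), with 1 symbol per library. Controls 2 and 4 (red squares and orange triangles) stood to the right for the stress response, and control 2 to the left for glycolysis and the cytoskeleton.

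Hsd3b1 followed the stress factor across the libraries. Among the 373 genes with 300 counts or more, the 10 whose log2(CPM + 10) was most like that of Ddit3 over the 6 libraries included Hsd3b1 (Pearson's r 0.945), Calr (0.938), Nr5a1 (0.905) and the C/EBP factor gene Cebpa (0.956). These r values rest on 6 libraries, are the highest picked out of many, and share library totals, so they are descriptions with no test. Star, with too few counts to be in that set, measured 740.0 and 577 CPM in the 2 libraries where Ddit3 was high. The part of the stress response in the levels of Hsd3b1, Nr5a1 and Star was not tested.

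The cytoskeleton moved the other way in control 2. The list of actin, tubulin and intermediate filament genes summed to 10269 CPM there, against 12536 to 14443 CPM in the other 5. Control 2 was the lowest library for 14 of 22 tested genes and for 21.2% of all tested genes. Of the 22, 8 were called, or 36.4%, where 10.0% of all tested genes were. The median of the 22 was 211.5 counts, and 17.0% of all tested genes with 200 to under 600 counts were called. Actb, beta-actin, measured 2493 CPM in control 2 and 2959 in control 4, against 3350 to 4394 CPM elsewhere. Tubb5, a beta-tubulin, measured 415 CPM in control 2 and 577 in control 4, against 812 to 1012 CPM elsewhere. Vim, vimentin, measured 77.9 CPM in control 2, against 313 to 406 CPM in the other 5. Control 2 was the lowest for the list's sum under all 4 scalings. Without controls 2 and 4, 3 of 20 were called, Tmsb10, Myl6 and Actb (adjusted p = 1.03e-04 by edgeR), but not Tubb5 (0.791) or Vim (0.919).

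The thymosin genes, whose small proteins bind actin monomers, went against that pattern. Tmsb4x measured 364 CPM in control 4 and 273 CPM in control 2, against 50.8 to 95.3 CPM elsewhere. Tmsb10 measured 1116 CPM in control 4, 701 in control 2 and 572 in control 3, against 196 to 323 CPM elsewhere. Tmsb4x had the largest gene-wise coefficient of variation of all called genes, 0.433 beyond counting error. Without controls 2 and 4 it had 34 counts, or 65.0 CPM in place of 124, and could not be tested.

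**Figure D4:**
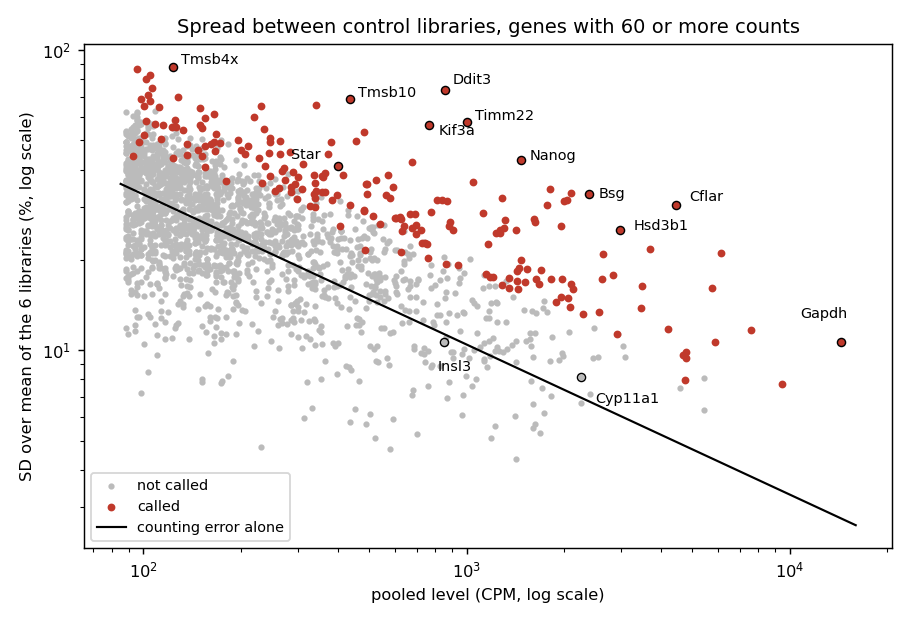
SD over mean of the 6 control libraries in percent (vertical axis, log scale) against pooled CPM (horizontal axis, log scale) for the 2024 tested genes, with called genes in red. The line is the spread that counting error alone gives at these depths. Cyp11a1 and Insl3 lie near the line, and Ddit3, Tmsb10, Timm22, Nanog and Cflar lie far above it.

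Over all genes, the spread beyond counting error came to a common biological coefficient of variation of 0.156. The median ratio of the highest to the lowest library among called genes was 2.38, and 139 of the 203 had a ratio of at least 2. These ratios include counting error, and some genes that were not called also passed 2, such as Hk2 at 3.47 and Vcam1 at 3.65. Control 2 deviated most for 61 of the called genes, control 4 for 47 and control 1 for 40, against 14 to 26 for the others. Without controls 2 and 4 the coefficient was 0.122, and 89 of the 203 genes were among the 100 then called. Called genes outside the lists included Bsg, a membrane glycoprotein that escorts lactate carriers, with 1772 CPM in control 1 and 3947 CPM in control 2. Cdkn1a, which encodes the cell cycle inhibitor p21, measured 286 CPM in control 2 against 33.8 to 107 CPM elsewhere, and had too few counts to be tested without controls 2 and 4 (39).

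A different split of the libraries ran through the genes that hold the repeated stretches printed above, which were looked for after Cflar, Timm22 and Kif3a had been seen to vary. Cflar, an inhibitor of caspase activation at rank 14, measured 3240 and 3142 CPM in controls 1 and 2, 6132, 6368 and 6056 CPM in controls 3, 4 and 5, and 4371 CPM in control 6. Controls 1 and 2 thus lay at about the same low level and controls 3 to 5 at the same high one, an order that the stress response did not show. Nanog, a pluripotency factor gene at rank 84, measured 948 and 753 CPM in controls 1 and 2, 1822, 2595 and 2182 CPM in controls 3, 4 and 5, and 1574 CPM in control 6. Irak1, a kinase of interleukin signalling, measured 1328 and 1584 CPM in controls 1 and 2 and 2876 to 3134 CPM in controls 3 to 5. These genes have unlike roles but the same profile.

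The 20 capital bases of the Irak1 and Xaf1 stretch were found in transcripts of 611 gene symbols, in either direction. Of these, 133 were tested and 32 called, or 24.1%, where 8.87% of tested genes with neither stretch were called. The share was 27.8% of 72 genes that held it in the sense direction and 20.3% of 59 in the antisense direction. Irak1 and Xaf1, which defined the stretch and were named after their values were seen, are among the 32. The called share rises with counts, as given above, and these shares were not matched for counts. The 10 genes most like Cflar over the 6 libraries, of the 373 compared, were Zmynd8, Washc4, Irak1, Ppm1k, Gmeb1, Ttf1, Churc1, Nanog, Mpv17l and Pbld1 (r from 0.956 to 0.989), and all 10 hold these bases. Those r values were picked as the highest and carry no test. The summed level of the 611 symbols was 53022 and 55446 CPM in controls 1 and 2, 73682, 77097 and 74028 CPM in controls 3, 4 and 5, and 63959 CPM in control 6. Those sums take in every count of these genes, whether it came from the stretch or not.

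The stretch of Timm22 and Kif3a gave another profile. Timm22, an insertion machine subunit of the inner mitochondrial membrane (chromosome 11, 76406925 to 76416313), measured 2482 CPM in control 4, 1024 to 1181 CPM in controls 2, 3 and 5, and 589 and 680 CPM in controls 1 and 6. Kif3a, a kinesin motor of cilia (chromosome 11, 53565701 to 53604248), measured 1780 CPM in control 4, 1181 in control 2 and 474 to 727 CPM in the others. Iho1, a meiotic recombination gene (chromosome 9, 108403492 to 108431841), measured 614 CPM in control 4 and 325 in control 2, and 96.2 CPM in control 6. Its pooled level was 231 CPM, or 159 CPM without controls 2 and 4, where it was still called (adjusted p = 0.0160 by edgeR). Of the 10 genes most like Timm22 over the libraries, Kif3a (r 0.950) and Eapp hold a stretch, and Ubb, Rpl7a, Eef1a1 and 5 others do not. In Timm22, Kif3a and Iho1 alike, control 4 was the highest library and controls 1 and 6 the lowest. The 20 bases were found in 18 symbols, of which 8 were tested and 4 called, the other being Akap5. Those 4 include Timm22 and Kif3a, which defined the stretch after they had been seen to vary, so the count was partly fixed by that choice. Summed over the 18, the level was 6732 CPM in control 4 and 2419 to 4349 CPM in the other 5.

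**Figure D5:**
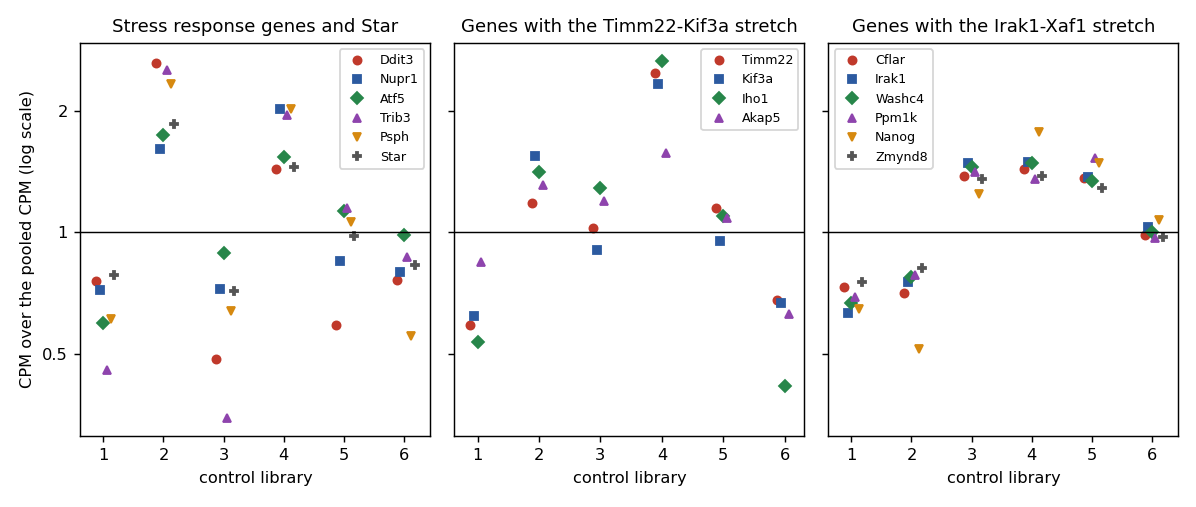
Level in each control library (horizontal axes) over the gene's pooled level (shared vertical axis, log scale) for stress response genes with Star (left), genes that hold 20 bases of the Timm22 and Kif3a stretch (middle) and genes that hold 20 bases of the Irak1 and Xaf1 stretch (right). The stress genes were highest in controls 2 and 4, the middle set in control 4, and the right set in controls 3, 4 and 5.

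Genes with either stretch made up 36 of the 203 called genes, or 17.7%, and 6.97% of all tested genes. The 36 include Timm22, Kif3a, Irak1 and Xaf1, which defined the stretches, so part of that share was set by this choice. Among the 100 highest genes, 8 hold one, which is near the 6.97% of all tested genes. A match shows only that the letters stand in an annotated transcript, and the counts are not resolved within a gene, so the part of these stretches in the counts was not tested. Without the genes that hold them, 165 of 1883 genes were called and the common coefficient of variation was 0.141. Rn45s, the ribosomal RNA precursor, which polyA selection should remove, also varied, from 1175 CPM in control 6 through 1826 to 2977 CPM in control 3, with controls 3, 5 and 1 as its 3 highest. It took 0.181% of all counts.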

How the data were processed

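Counts as deposited by the authors are whole numbers for each gene symbol in 12 libraries, with no normalization, and the table's name marks them as UMI counts on RefSeq genes. Per the submitters' processing notes, BWA 0.7.4.4 and mm10 were used. The counting program, RefSeq release, strand and the place of the tags in a transcript were not given in the labels, so overlapping genes on opposite strands cannot be told apart and ranks per kilobase assume tags along the whole transcript. Groups came from the labels. Levels are counts over column totals, per library and pooled, with exact Poisson intervals at 95%.

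Spread was tested on the 6 control libraries with edgeR 4.0.16 in R 4.3.3 (goodness of fit with dispersion 0, 5 degrees of freedom, log column totals as offset, at least 60 pooled counts, Benjamini-Hochberg, threshold 0.05), which was tried on simulated data. The coefficient of variation came from edgeR's estimateDisp, with DESeq2 1.42.0 as an alternative. Ranks per kilobase use the median length of a symbol's protein-coding GENCODE M21 transcripts, known for 2019 of 2024 tested genes. RefSeq had been planned, but its table gives gene spans only. Retained-intron transcripts were dropped after they were seen to shorten some genes. Stretches were searched in the same transcripts. Positions are RefSeq's on GRCm38.

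Members and lists were chosen with earlier results of these data known. Named genes are the 6 markers, the 20 highest, of each list the 4 highest, those at 0 and those called, the 15 called with the largest coefficient of variation, and 5 of the study's question. Genes with a stretch, and a few others such as Bsg and Rn45s, were named after their values were seen. All 6 libraries entered the reported test. Some members of the lists are not reported here.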

Additional observations from a re-analysis of the deposited data

Results flagged for a closer look

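Of 48 groups of 6 control values checked for a lone library (markers, other genes of the study's question, summed lists and genes with a stretch), 2 held one, where chance at 1 in 20 gives 2.4. The p53 and tumour growth genes summed to 1039 CPM in control 2, far from the 564 to 655 CPM of the other 5. Cdkn1a measured 286 CPM there against 33.8 to 107 CPM elsewhere. The antioxidant and iron storage genes summed to 28783 CPM in control 4, below the 31702 to 33433 CPM of the other 5. Gstm1 measured 4149 CPM in control 4, against 5102 to 6783 CPM elsewhere. With upper-quartile factors control 1 was the lowest for that sum, at 29149. No cause was tested for either value.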

How the results depend on the processing

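The count of 203 genes with spread beyond counting error was 134 with no filter on low counts, 107 after thinning each library to 59113 counts and 100 without controls 2 and 4, and ran from 133 (without control 1) to 205 (without control 5) with 1 library left out. No filter means more genes to adjust over, and the others have fewer counts or libraries. With TMM factors 239 genes were called, of which 175 were among the 203, and with upper-quartile factors 282. The common coefficient of variation of 0.156 was 0.178 with upper-quartile factors, 0.122 without controls 2 and 4 and 0.141 without genes holding a repeated stretch. The square root of the median of DESeq2's gene-wise dispersions, which is a different summary, was 0.0715. With 1 library left out, the common coefficient ran from 0.142 (without control 2) to 0.171 (without control 6). The cause of these differences was not tested. Counting only genes with a count in each library gave 5633 in place of 16622 detected genes. The other 38 values of these 4 kinds stayed within 1.5 times, or 1 SD, of the reported one. For single genes and lists, 2936 values stayed on the same side of the threshold or within 1 SD, 231 lost a call and 48 gained one. No paired analysis was possible because a single group was described and no groups were compared. At these depths a gene under 60 pooled counts was not tested, and the exact interval of a gene at 0, such as Hsd17b3, reaches 5.43 CPM.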
